A study of Mus musculus with 4 samples.

Results

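Fibroblast growth factors (FGFs), their receptors and the transcripts that report on and restrain their signal were measured by RNA-seq in mouse cranial neural tubes dissected at embryonic day 10.5. The set was chosen by name, not by measurement: every protein-coding gene called Fgf, Fgfr, Spry, Spred or Etv followed by a number in the GENCODE M21 annotation, with Dusp6 added. It held 39 genes, out of 54532 gene IDs counted in all, and 32 of them had at least 20 counts summed over the 4 libraries. The other 7, Etv2, Fgf1, Fgf4, Fgf5, Fgf6, Fgf7 and Fgf20, fell below that sum, and Fgf5 was listed at 0 in all libraries.

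The study compared 2 groups of 2 libraries. DCKO (double conditional knockout) tissue was Lats1 flox/flox and Lats2 flox/flox and carried the E2f1 Tg(Wnt1-cre)2Sor/+ transgene. Its Cre is driven by Wnt1 regulatory sequences and so acts where these are or were active, in only some of the cells dissected. Dorsal neural tube cells and neural crest are among these cells, and this is not a full list. Control tissue lacked this transgene, and the labels give no Lats1 or Lats2 alleles for it. Lats1 and Lats2 encode the Hippo pathway kinases that hold back the coactivators YAP and TAZ. Nothing in the labels says whether a library came from 1 embryo or from a pool, or whether the 2 of a group are separate embryos, so p-values measure the spread between these libraries, which may be technical.

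FGF ligands bind receptor tyrosine kinases together with heparan sulphate and signal largely through Ras and the kinase ERK. ERK switches on Etv1, Etv4 and Etv5, which encode ETS transcription factors, and also the Spry, Spred and Dusp6 genes, whose products damp the same cascade. At this stage Fgf8, Fgf17 and Fgf18 are known from the isthmus, the signalling centre between midbrain and hindbrain, and FGF signals pattern the tissue on either side of it.

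In DCKO, the ligand genes Fgf18 and Fgf23 and the receptor gene Fgfr4 were higher and the receptor gene Fgfr3 was lower, and none of the feedback or Etv genes passed the test in edgeR. Of the 32 genes, 29 entered the test across all genes (edgeR's quasi-likelihood test, Benjamini-Hochberg adjusted p under 0.05), and Fgf16, Fgf21 and Fgf22 were too low to be tested. Fgf23 and Fgfr4 met the count limit for testing only through the DCKO libraries, where they were high. Their calls, and their part in the counts below, lean on that limit. Tested together with every gene that had any count, Fgf23 and Fgfr4 had adjusted p-values of 0.0342 and 0.0199 in edgeR. The 3 higher genes were 10.3% of those tested and the 1 lower gene 3.45%, while among all 19207 tested genes 8.93% were higher and 8.11% lower. Both DCKO libraries lay above both Control libraries for 7 of the 29 genes (24.1%, against 33.6% of all tested genes) and below them for 8 (27.6%, against 32.9%). Counted in either direction, the groups did not overlap for 51.7% of the 29 genes and for 66.4% of all tested genes. The median log2 fold change was -0.23 over the 29 genes and 0.03 over all tested genes. An unadjusted p under 0.05 in edgeR was found for 8 of the 29 genes and for 6896 of all 19207 tested genes. Counts at an unadjusted p in edgeR, given below for families and lists, are to be set against that share.

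**Figure D1:**
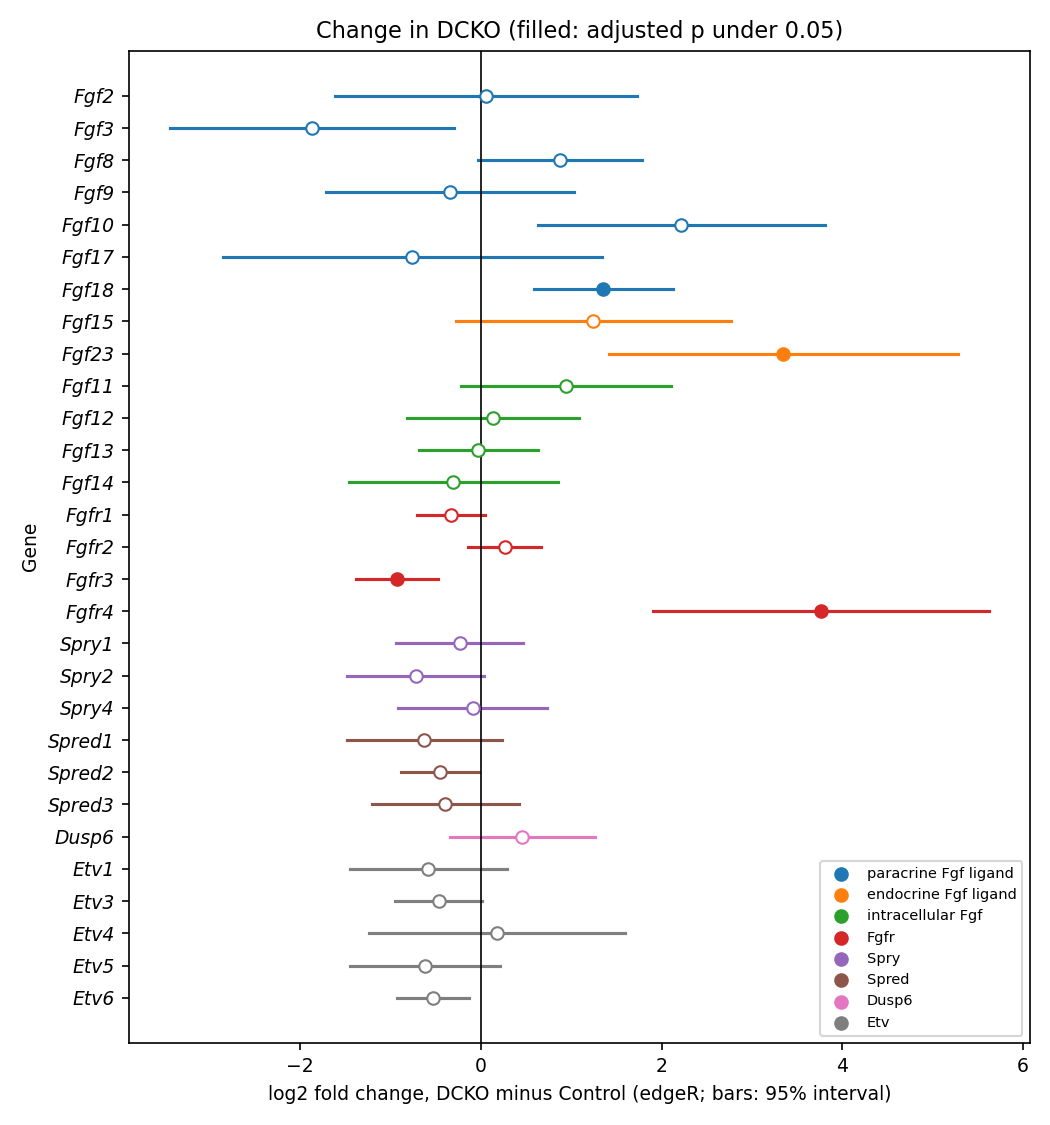
Log2 fold change of DCKO against Control (x axis) for the 29 tested genes (y axis), coloured by family, with bars for 95% intervals from edgeR and filled circles for an adjusted p under 0.05. Filled circles mark Fgf18, Fgf23 and Fgfr4 to the right of 0 and Fgfr3 to the left.

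Among the paracrine ligands, Fgf18 passed the test. Fgf18 (ENSMUSG00000057967, chromosome 11, 33117430 to 33147400, minus strand, GRCm38), an FGF8-subfamily ligand, had 5.97 and 4.53 CPM (counts scaled to library size) in Control 1 and 2 against 16.2 and 10.7 CPM in DCKO 1 and 2. The groups did not overlap, and the means were 5.25 ± 1.02 and 13.4 ± 3.95 CPM (SD, n = 2). The log2 fold change was 1.36 (SE 0.31, adjusted p 0.0403 in edgeR). The adjusted p was 0.151 without Control 1 and 0.228 without Control 2, and it was 0.0659 when counts were scaled to library totals. In every fit without 1 library, here and for the genes that follow, the lone library of that group is assumed to vary like the pair of the other group, so a pass without a DCKO library takes its spread from the Control pair alone.

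Fgf23 (ENSMUSG00000000182, chromosome 6, 127072902 to 127081408, plus strand), best known as a bone-derived hormone of phosphate balance, was close to the limit of detection in Control. It had 6 and 6 counts in the Control libraries against 67 and 20 in DCKO, or 0.0958, 0.119, 1.67 and 0.541 CPM. Both DCKO libraries were above both Control libraries, and DCKO 1 was 3.09 times DCKO 2. Its log2 fold change was 3.35 (SE 0.77, adjusted p 0.0416 in edgeR). It did not pass without Control 1 (0.222), Control 2 (0.192) or DCKO 1 (2.31, adjusted p 0.126), or in limma-voom (0.0616).

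The RefSeq promoter windows of the 2 ligands that passed are shown because they differ in base composition, as the 250 bases before the annotated start, written 5′ to 3′ on the gene's strand (GRCm38.p6). The Fgf18 window lies at chr11:33147401-33147650 on the minus strand and the Fgf23 window at chr6:127072652-127072901 on the plus strand.
Fgf18: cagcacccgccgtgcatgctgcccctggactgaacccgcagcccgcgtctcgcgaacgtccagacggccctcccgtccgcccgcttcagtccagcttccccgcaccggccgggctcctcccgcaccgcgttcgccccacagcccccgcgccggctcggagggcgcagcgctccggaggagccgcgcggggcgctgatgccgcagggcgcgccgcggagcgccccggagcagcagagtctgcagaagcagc
Fgf23: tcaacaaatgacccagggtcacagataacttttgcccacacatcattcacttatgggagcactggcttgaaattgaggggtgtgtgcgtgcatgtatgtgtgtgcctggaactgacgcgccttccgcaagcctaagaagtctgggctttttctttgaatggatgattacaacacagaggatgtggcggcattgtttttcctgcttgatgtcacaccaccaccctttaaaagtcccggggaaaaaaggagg
The Fgf18 window is 77.2% G or C with 37 CpG dinucleotides and the Fgf23 window 48.4% with 6, against a median of 6 CpG over 32851 windows. Each window was searched on both strands for GGAATG, the core bound by TEAD partners of YAP, for TGANTCA, bound by AP-1, and for CCGGAA, bound by ETS factors. Neither window holds any of these letters, so nothing is in capitals. The 25 member genes with a window have 34 windows. GGAATG was in 5 of these 34 (of Etv1, Fgf3, Fgf11, Fgf12 and Spry1), TGANTCA in 2 and CCGGAA in 2 (of Fgf12 and Fgfr4), while 12.6%, 6.75% and 12.0% of all windows hold them.

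Fgf10, a ligand of mesenchyme and of several organ buds, had 0.783 and 2.02 CPM in the Control libraries against 3.90 and 9.09 in DCKO. All DCKO values were above all Control values, yet each pair differed more than 2-fold within itself. Its log2 change of 2.22 (SE 0.64) did not reach the threshold in edgeR (adjusted p 0.0676) and passed in DESeq2 (0.00413) and without DCKO 1 (2.70, adjusted p 0.0177). Fgf8, the principal isthmic ligand, had 6.55 and 3.48 CPM in the Control libraries against 8.80 and 9.63 in DCKO, without overlap. Its log2 fold change was 0.88, with a 95% interval from -0.03 to 1.78.

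Fgf15, the mouse counterpart of human FGF19 and a ligand of the embryonic brain that later acts as an endocrine signal from the gut, was the most abundant ligand. It had 65.3 and 49.6 CPM in the Control libraries against 217 and 55.8 in DCKO, so DCKO 2 lay between the Control libraries and DCKO 1 stood far above. The log2 fold change was 1.25 (SE 0.61, adjusted p 0.202 in edgeR), and it was -0.05 (adjusted p 0.893) without DCKO 1 and 1.91 (0.00402) without DCKO 2. Fgf17, an isthmic relative of Fgf8, had 19.5 and 8.58 CPM in the Control libraries against 14.3 and 2.30 in DCKO. Its groups overlapped, with a log2 change of -0.76 that was -2.62 (adjusted p 0.0218) without DCKO 1 and 0.02 without DCKO 2.

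Fgf3, a hindbrain and otic ligand, lies beside Fgf4 and Fgf15 on chromosome 7 (Fgf3 from 144838083, Fgf15 to 144900953). Fgf3 had 94 and 62 counts in the Control libraries against 22 and 7 in DCKO, or 1.501, 1.23, 0.550 and 0.189 CPM. Both DCKO values were below both Control values, with a log2 change of -1.87 (SE 0.63) that did not reach the threshold in edgeR (adjusted p 0.0958) and passed without DCKO 1 (-2.84, adjusted p 0.0216). In the same stretch, Fgf4 had 3 counts in DCKO 1 and was listed at 0 in the other libraries.

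The remaining extracellular ligands were scarce. Fgf2, which shares its locus with the antisense gene Nudt6, had 1.47 and 0.474 CPM in the Control libraries against 1.27 and 0.758 in DCKO, and Fgf9 had between 0.325 and 0.447 CPM in all libraries. Fgf16 and Fgf21 were at 0 counts in both Control libraries. Fgf16 had 38 and 2 counts in DCKO, which is at least 9.37-fold higher, and Fgf21 had 2 and 22, which is at least 6.02-fold higher, each against a floor of 3 counts per Control library. Each bound rests on a single DCKO library, and taken on the other one alone it was 1.01 for Fgf16 and 0.933 for Fgf21. Fgf22, which overlaps Rnf126 on the opposite strand, had 8 and 22 counts in the Control libraries against 3 and 3 in DCKO.

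**Figure D2:**
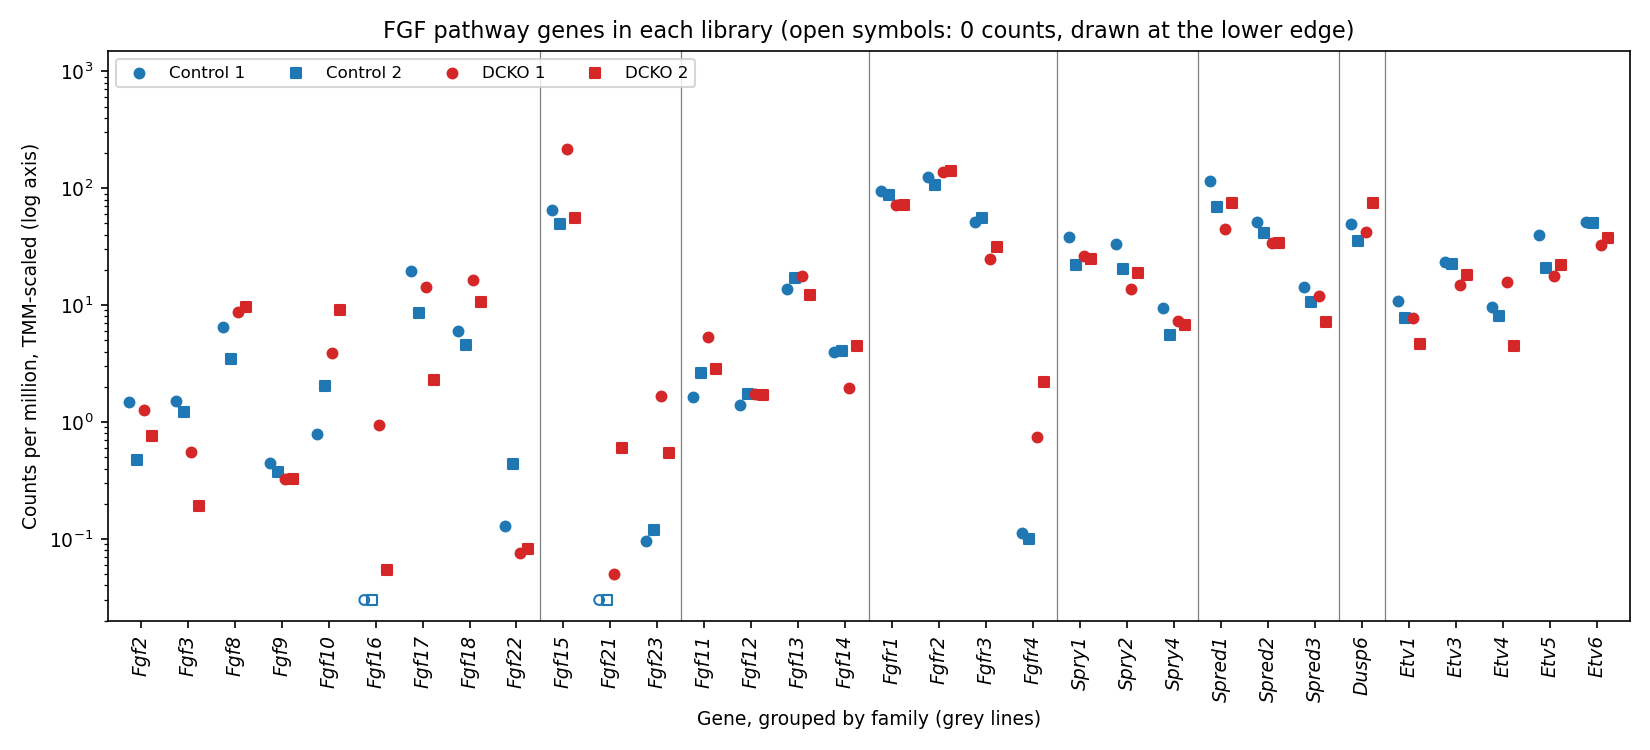
CPM of the 32 genes (x axis, grouped by family) in each library on a log y axis, with circles for library 1 and squares for library 2, blue for Control and red for DCKO. Fgf18, Fgf23 and Fgfr4 have red above blue and Fgfr3 has blue above red, while Fgf15, Fgf17 and Etv4 have wide gaps between the red symbols.

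Levels of different genes can be set side by side on the length-scaled TPM (transcript abundance per library) that the authors deposited. On this scale, Fgf15 made up 57.5% and 64.0% of the summed TPM of the 12 reported extracellular ligands in Control, and 76.6% and 58.4% in DCKO. Fgf17 made up 21.1% and 13% in Control and 6.27% and 2.45% in DCKO, and Fgf18 8.84% and 9.84% in Control and 9.55% and 16.8% in DCKO. Fgf8 gave 10.3% and 8.45% in Control and 5.41% and 15.8% in DCKO, so that its share overlapped between the groups. Sums of TPM are not TMM-scaled, and on log2(TPM + 1) the median log2 change over genes moved by -0.14 against the TMM-scaled fit. The summed ligand TPM was 118 and 66.5 in the Control libraries against 208 and 90.5 in DCKO, and Fgf15 alone gave 159 TPM of the highest sum, that of DCKO 1. By this measure the extracellular ligand pool was Fgf15 first in every library, while the second place went to Fgf17 in both Control libraries and to Fgf18 in both DCKO libraries.

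**Figure D3:**
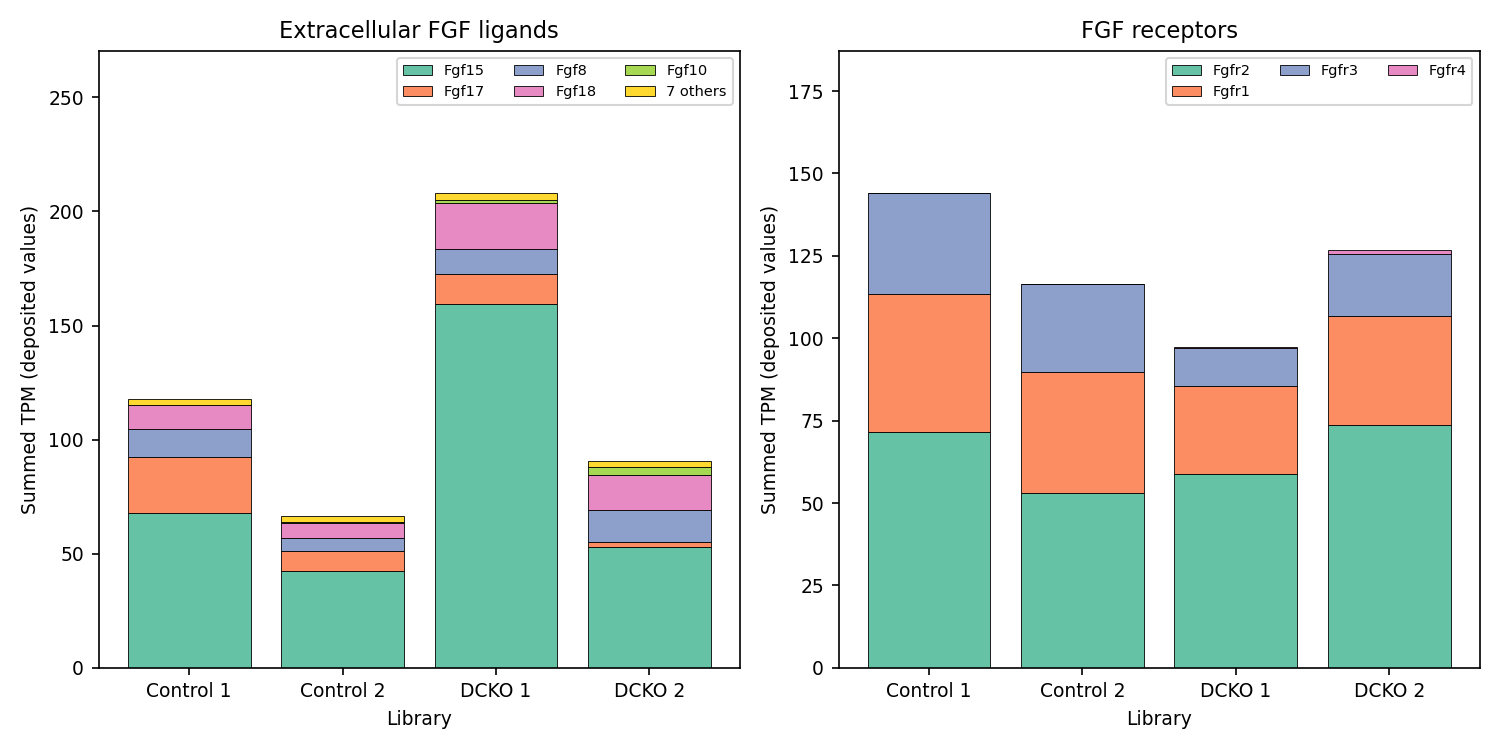
Summed deposited TPM (y axis, from 0) in each library (x axis), stacked by gene, for the 12 extracellular ligands (left) and the 4 receptors (right). Fgf15 is the largest block in all 4 ligand bars, and the Fgfr3 block is smaller in both DCKO bars than in both Control bars.

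The intracellular FGF homologous factors, Fgf11 to Fgf14, are not secreted and bind voltage-gated sodium channels of neurons. None of the 4 passed in edgeR, DESeq2 or limma-voom, and 0 had an unadjusted p under 0.05 in edgeR. Fgf13, an X-linked gene and the highest of the 4 in mean TPM in each group, had 13.7 and 16.9 CPM in the Control libraries against 17.8 and 12.2 in DCKO, with a log2 change of -0.03 (SE 0.26, adjusted p 0.950). Fgf14 had 3.94 and 4.01 CPM in the Control libraries against 1.95 and 4.49 in DCKO, and Fgf12 stayed between 1.41 and 1.72 CPM in all libraries. Fgf11 had 1.65 and 2.61 CPM in the Control libraries against 5.37 and 2.81 in DCKO, a small gap between the groups with an adjusted p of 0.206. Among 6 sodium channel genes, 0 passed in edgeR, 1 had an unadjusted p under 0.05 and 1 was lower in both DESeq2 and limma-voom. That with the smallest p, Scn3a, had 8.10 and 8.95 CPM in the Control libraries against 2.42 and 0.487 in DCKO (log2 fold change -2.54, adjusted p 0.0647 in edgeR).

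The 4 receptor genes had groups that did not overlap, as did 66.4% of all tested genes, with Fgfr2 and Fgfr4 above Control and Fgfr1 and Fgfr3 below it, but only Fgfr3 and Fgfr4 passed. Fgfr3 (ENSMUSG00000054252, chromosome 5, 33721674 to 33737068, plus strand), a receptor of neural progenitors, had 51.9 and 55.8 CPM in the Control libraries against 25.02 and 31.5 in DCKO. Its means were 53.9 ± 2.77 and 28.3 ± 4.602 CPM (SD, n = 2), and its log2 fold change was -0.93 (SE 0.18, adjusted p 0.0288 in edgeR). Without Control 1 and Control 2 it was -0.99 and -0.91 with adjusted p-values of 0.149 and 0.172. In the same libraries the summed CPM of 8 neural progenitor markers was 2285 and 2568 in the Control libraries against 840 and 696 in DCKO, and its part in the fall of Fgfr3 was not tested. In bulk tissue, fewer cells of a type and less RNA per cell cannot be told apart.

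The genome also holds a processed pseudogene, Fgfr3-ps, on chromosome 1, with 5.27 and 5.24 CPM in the Control libraries against 1.85 and 2.82 in DCKO (log2 fold change -1.17, adjusted p 0.0726). Over 1117 aligned bases of the GENCODE transcripts, 88.4% were identical to the longest coding transcript of Fgfr3. Of the 1088 stretches of 50 bases in the pseudogene, 0 occur unchanged in any Fgfr3 transcript. The most divergent stretch of 60 coding bases is shown, from base 2460 of that Fgfr3 transcript and base 874 of the pseudogene, with the 13 differing bases in capitals.
Fgfr3: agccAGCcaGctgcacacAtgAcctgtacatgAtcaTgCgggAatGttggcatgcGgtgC
Fgfr3-ps: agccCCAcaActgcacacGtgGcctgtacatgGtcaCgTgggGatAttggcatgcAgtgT
How reads that fit both copies were counted is not given in the sources used here, so how many counts moved between them was not tested.

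Fgfr4 (ENSMUSG00000005320, chromosome 13, 55152640 to 55168759, plus strand), a receptor known from muscle and endoderm derivatives, was almost absent in Control. It had 7 and 5 counts in the Control libraries against 30 and 81 in DCKO, or 0.112, 0.0988, 0.750 and 2.19 CPM. Both DCKO libraries were above both Control libraries, with a log2 change of 3.77 (SE 0.74, adjusted p 0.0290 in edgeR), or 0.156 without Control 1 and 0.160 without Control 2. Without DCKO 2 the log2 change was 2.80, and Fgfr4 then entered the test only through DCKO 1. Even so, Fgfr4 gave at most 0.907% of the receptor TPM in any library.

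Fgfr2, the most abundant receptor, had 124 and 106 CPM in the Control libraries against 137 and 139.9 in DCKO (log2 fold change 0.27, SE 0.16, adjusted p 0.291), and with library totals the value was -0.08. The annotation runs its gene model from 130162451 to 133123350 on chromosome 7, across 69 other models, so its count may hold reads of other genes. Fgfr1, a receptor of the whole neural tube, had 94.3 and 87.7 CPM in the Control libraries against 72.5 and 72.2 in DCKO (log2 fold change -0.33, 95% interval -0.71 to 0.05), and passed with library totals (-0.68, adjusted p 0.0307), where the median over all tested genes was -0.35 from its value under the usual scaling. In shares of receptor TPM, Fgfr3 gave 21.2% and 23.0% in the Control libraries against 11.7% and 14.9% in DCKO, Fgfr1 gave 26.2% to 31.5% in all libraries, and Fgfr2 gave 49.6% and 45.5% in Control and 60.5% and 58.0% in DCKO.

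The feedback inhibitors did not pass the test. Of 3 Spry genes, which encode Sprouty inhibitors of receptor signalling, 0 were called in edgeR, DESeq2 or limma-voom. In edgeR 0 had an unadjusted p under 0.05, against 6896 of all 19207 tested genes. Spry1 had 38.0 and 22.1 CPM in the Control libraries against 26.2 and 24.95 in DCKO, with DCKO between the Control values (log2 fold change -0.23, SE 0.28, adjusted p 0.591). Spry2 had 33.5 and 20.3 CPM in the Control libraries against 13.9 and 18.8 in DCKO. Its groups did not overlap, and its log2 fold change was -0.72 with a 95% interval from -1.48 to 0.04. Spry4 had 9.50 and 5.53 CPM in the Control libraries against 7.32 and 6.82 in DCKO.

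Of the 3 Spred genes, which encode Sprouty-related inhibitors that act on Ras and Raf, 0 were called in edgeR, DESeq2 or limma-voom, and 1, Spred2, had an unadjusted p under 0.05. Spred1 had 115 and 68.5 CPM in the Control libraries against 44.97 and 74.1 in DCKO (log2 fold change -0.62, SE 0.35, adjusted p 0.251), so that DCKO 2 lay between the Control values. Spred2 had 51.3 and 41.76 CPM in the Control libraries against 33.9 and 34.1 in DCKO, without overlap (log2 fold change -0.45, adjusted p 0.127). It passed with library totals (-0.80, adjusted p 0.0282), where the median over all tested genes moved by -0.35. Spred3, which overlaps Ggn on the opposite strand, had 14.4 and 10.6 CPM in the Control libraries against 11.9 and 7.15 in DCKO.

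Dusp6, the phosphatase that inactivates ERK and a common readout of FGF signalling, had 49.5 and 35.4 CPM in the Control libraries against 42.0 and 74.8 in DCKO. DCKO 1 lay between the Control libraries and DCKO 2 above them, and the log2 fold change was 0.46 (SE 0.32, adjusted p 0.355 in edgeR). Without DCKO 2 it was -0.02 and without DCKO 1 it was 0.81. Of 4 other ERK phosphatase genes, 0 passed in edgeR, DESeq2 or limma-voom and 2 had an unadjusted p under 0.05, with Dusp4 having the smallest (43.1 and 36.3 CPM in Control, 21.9 and 29.8 in DCKO, adjusted p 0.103).

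Among the 5 Etv genes, 0 passed in edgeR and limma-voom, 1 (Etv6) had an unadjusted p under 0.05, and the same gene was lower in DESeq2. Etv6, a transcriptional repressor of the ETS family and the highest of the 5 in mean TPM in each group, had 51.2 and 50.1 CPM in the Control libraries against 32.7 and 37.5 in DCKO. The groups did not overlap, and its log2 change of -0.53 (SE 0.16) had an adjusted p of 0.0757 in edgeR, 0.0350 in DESeq2 and 0.0181 with library totals. Without DCKO 2 the log2 change was -0.63. Etv3, another repressor, had 23.2 and 22.3 CPM in the Control libraries against 14.8 and 18.1 in DCKO (log2 fold change -0.47, adjusted p 0.150), and passed with library totals (-0.82, adjusted p 0.0337). With library totals the median over all tested genes moved by -0.35, and 3744 of 19207 genes were called lower.

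Etv1, Etv4 and Etv5 form the PEA3 group, the ETS factors that FGF signalling is best known to induce. Etv5 had 39.9 and 20.97 CPM in the Control libraries against 17.8 and 21.9 in DCKO, and Etv1 had 10.9 and 7.77 in the Control libraries against 7.80 and 4.65 in DCKO, both with overlapping groups. Etv4 had 9.68 and 8.12 CPM in the Control libraries against 15.7 and 4.49 in DCKO, so that the DCKO libraries lay on opposite sides of Control. Its log2 fold change was 0.18 (SE 0.57, adjusted p 0.849), and it was -0.99 (adjusted p 0.0483) without DCKO 1 and 0.81 (0.0420) without DCKO 2.

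Libraries of 1 group differed widely in some of these genes. Between the DCKO libraries, 5 of 24 members with a mean of at least 1 CPM differed by more than 2-fold (20.8%, against 10.5% of all such genes), and between the Control libraries 2 of 24 did (8.33%, against 3.58%). Fgf15, Fgf17 and Etv4 were 3.89, 6.204 and 3.49 times higher in DCKO 1 than in DCKO 2, while Dusp6, Fgf10 and Fgfr4 were higher in DCKO 2 (1.78, 2.33 and 2.92 times). Of the 11 isthmic and anterior neural ridge genes, 5 were higher in DCKO 1 and 6 in DCKO 2. Chosen after their values were seen, Pax8 had 17.2 and 5.63 CPM in DCKO 1 and 2 and En2 54.9 and 21.2, while Gbx2 had 1.48 and 2.65 and Sp8 18.4 and 28.1. All 5 neural crest markers were higher in DCKO 2, among them Sox10 with 1.38 and 24.1 CPM and Foxd3 with 0.725 and 12.3. Their part in the difference between these libraries was not tested.

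**Figure D4:**
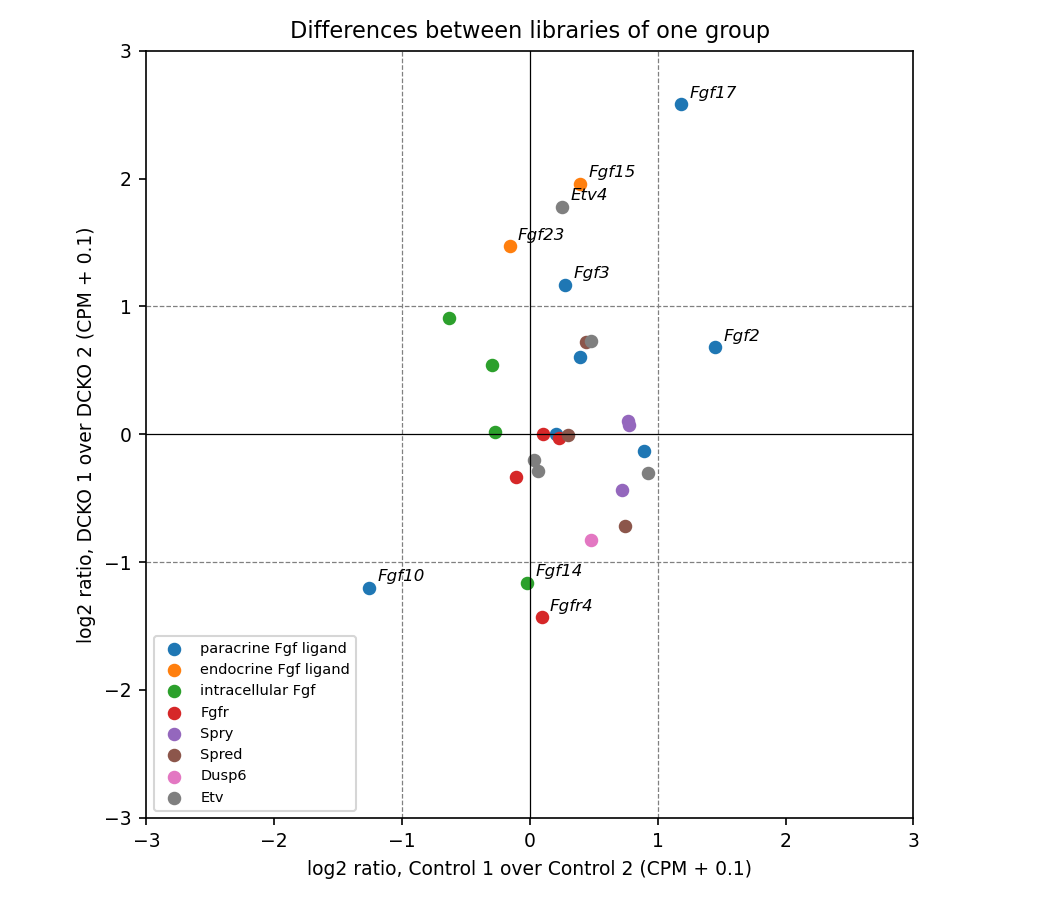
Log2 ratio of Control 1 over Control 2 (x axis) against DCKO 1 over DCKO 2 (y axis) for the 29 tested genes on CPM + 0.1, with dashed lines at 2-fold. Fgf17, Fgf15 and Etv4 stand highest on the y axis, and all Spry, Spred, Dusp6 and Etv points lie right of 0.

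The feedback and Etv genes also differed between the Control libraries. All 12 tested Spry, Spred, Dusp6 and Etv genes were higher in Control 1 than in Control 2, a grouping made after the values were seen, as were 49.2% of all tested genes, and 5 of the 12 were higher in DCKO 1 than in DCKO 2. Il17rd, which encodes the FGF antagonist Sef, had 105 and 22.7 CPM in Control 1 and 2 and 41.9 and 30.5 in DCKO. These genes are not independent replicates, and the spread within the Control pair enters each of their tests above. Leaving out a Control library moved them, as the plot of such fits shows for Etv5 and Spry2. Without Control 1, Etv5 had a log2 change of -0.09, Spry1 0.20 and Spry4 0.35, and without Control 2 they had -1.04, -0.60 and -0.46.

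**Figure D5:**
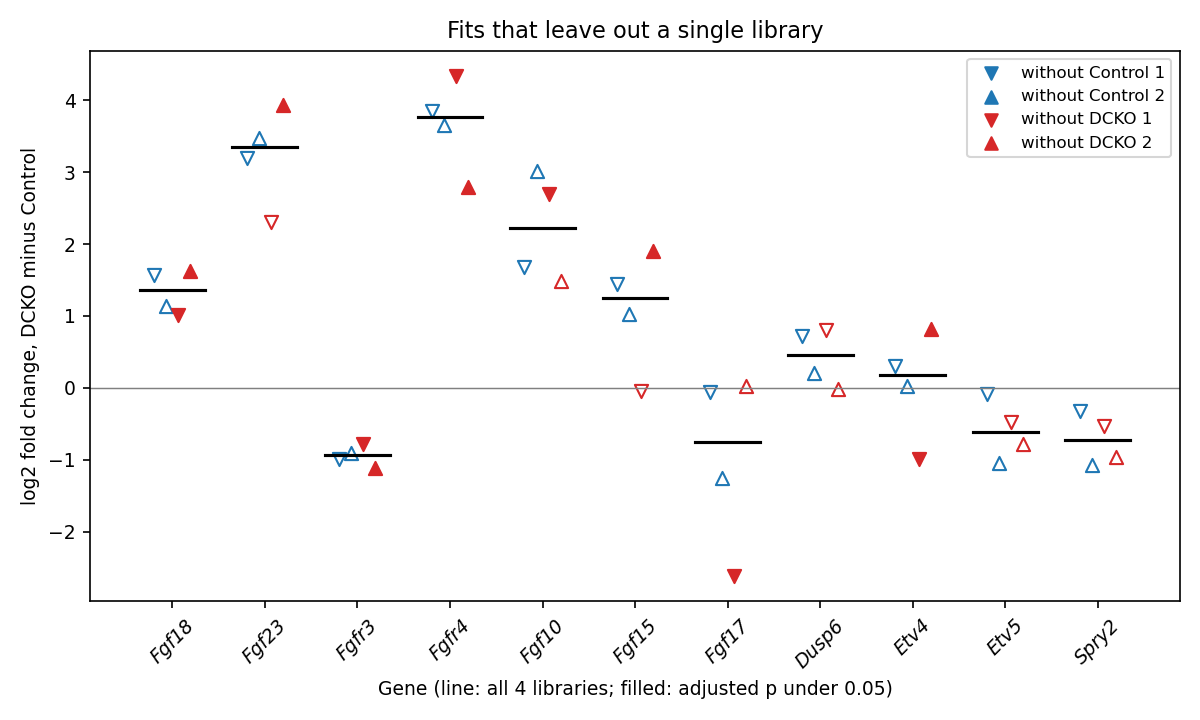
Log2 fold change (y axis) of 11 genes (x axis) when each library is left out in turn, with blue triangles for Control libraries, red for DCKO libraries, a line for all 4 libraries and filled symbols for an adjusted p under 0.05 (open otherwise). Fgf15, Fgf17 and Etv4 move most between the red triangles, and no blue triangle is filled.

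Other genes of the pathway were counted from fixed lists. Among all tested genes, 8.93% were called higher and 8.11% lower in edgeR. Of 8 tested co-receptors, decoy receptors and FGF binding proteins, 2 were higher and 1 lower. Fgfbp3 and Fgfbp1, which encode carriers that release FGFs from matrix, had 19.3 ± 3.74 and 0.498 ± 0.0498 CPM in the Control libraries against 59.1 ± 13.02 and 4.14 ± 2.79 in DCKO (SD, n = 2), and Flrt1, a transmembrane FGF receptor partner, had a log2 change of -1.19 (adjusted p 0.0450). Of 19 tested genes of heparan sulphate synthesis, editing and core proteins, 8 were higher and 2 lower. Their median log2 change was 0.58. The glypicans Gpc3 (2.12, SE 0.15) and Gpc4 (3.12, SE 0.34), the syndecan Sdc4 (1.99, SE 0.18) and the sulphotransferase Hs6st2 (2.05, SE 0.19) rose. The 2 lower genes were Ndst1, a sulphotransferase, and Gpc1, another glypican, with log2 fold changes of -1.28 and -1.33. Such core proteins are also expressed by mesenchyme and surface ectoderm, whose markers were higher in the same libraries, and their part was not tested.

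Downstream of the receptors, the lists held a few called genes each, against 8.93% of all tested genes called higher and 8.11% lower. Of 12 receptor adaptor genes, 2 were higher, Gab1 (log2 fold change 1.24, SE 0.17) and Shc1 (1.08, SE 0.17), and 0 lower. Of 13 genes of the Ras to ERK cascade, 3 were higher and 1 lower, among them the ERK kinase genes Map2k1 (0.90) and Map2k2 (-0.94), which changed in opposite directions, Mapk3, which encodes ERK1 (0.91), and the Raf gene Araf (0.80). Of 12 tested genes listed as ERK-responsive, 3 were higher and 1 lower. That list also held Elk1, Elk3 and Elk4, which did not pass in edgeR, and whether ERK changes these transcripts was not tested. Fos, Ier3 and Egr1, immediate early genes that also answer to stress and dissection, had 0.185 ± 0.00974, 1.21 ± 0.295 and 2.01 ± 0.523 CPM in the Control libraries against 12.2 ± 5.85, 37.4 ± 20.8 and 19.0 ± 10.4 in DCKO (SD, n = 2). Fos met the count limit for testing only through the DCKO libraries, where it was high, so its call leans on that limit. Ccnd1, the cell cycle gene for cyclin D1, fell from 408 ± 0.373 to 160.5 ± 61.0 CPM (log2 fold change -1.35). Of 11 isthmic and anterior neural ridge genes, Otx2, of forebrain and midbrain, was higher (1.00, adjusted p 0.0179) and Pax2, of the isthmus, lower (-3.59, adjusted p 0.0140), while Wnt1, En1 and Pax5 had 1.14, -0.36 and 0.02 and did not pass.

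Markers of other cell types moved with the groups. For scale, 8.93% of all tested genes were called higher and 8.11% lower in edgeR. Called higher in DCKO were 8 of 8 surface ectoderm markers (summed CPM 15.3 and 17.6 in Control, 274 and 275 in DCKO), 8 of 9 cranial mesenchyme markers (302 to 351 against 1029 to 2165), 5 of 7 endothelial markers (138 to 146 against 383 to 685) and 4 of 6 pericyte markers, with 1 lower (216 to 225 against 518 to 770.5). The surface ectoderm markers Trp63 and Wnt6 met the count limit for testing only with the DCKO libraries, where they were high, so their calls lean on that limit. Called lower were 7 of 8 neural progenitor, 4 of 7 neuron (954 to 1217 against 244 to 557) and 6 of 6 erythroid markers (2530 to 3731 against 650 to 882). Of 5 macrophage and 5 neural crest markers 0 passed in edgeR (0 and 3 with an unadjusted p under 0.05), 1 neural crest marker was higher in DESeq2, and 1 of 4 tested otic and placode markers was higher, with Oc90 at 0 in all libraries. The part of these cell types in the higher Fgf18, Fgf23, Fgf10 and Fgfr4 was not tested. Library totals ran from 41798361 to 55137810 counts, the ribosomal RNA cluster on chromosome 17 took 12.4% to 13.2% of Control counts and 24.7% to 30.3% of DCKO counts, and Xist had 10837 and 7786 counts in the Control libraries against 8 and 22 in DCKO, so embryo sex and group cannot be told apart. Lats1 counts were 2770 and 3318 in Control libraries against 1201 and 1096 in DCKO (adjusted p 0.0538 in edgeR), and those of Lats2 were 1674 and 671 against 849 and 1304. The deleted exons are not given in the sources used here, so these counts do not check the genotype.

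In the authors' deposited table of 12574 genes, 23 of the 39 genes appear, and 3 are higher and 1 lower at a false discovery rate under 0.05, against 15.6% higher and 13.2% lower over that table. The sign of the log2 value there matched that from the counts here, higher in DCKO being positive, for 22 of these 23 genes, Fgf13 (near 0 in both) being the other. The authors' deposited table gives Fgf10 a log2 change of 2.27 (FDR 0.00142), Fgf18 1.41 (0.00287), Fgf15 1.303 (0.0254) and Fgfr3 -0.87 (0.00937). The authors' deposited table thus calls Fgf10 and Fgf15, which did not reach the threshold in edgeR here, and it does not list Fgf23 and Fgfr4, which passed.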

How the data were processed

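The authors deposited 1 table of whole-number counts per Ensembl gene with a column for each of the 4 libraries, 1 table of TPM, the length-scaled abundance, and 1 table of their own comparison. In it the authors give each gene a log2 fold change with its p-value, and the false discovery rate. Per the submitters' processing notes, TopHat2 2.1.1, StringTie, edgeR 3.16.5, limma 3.30.13 and R 3.3.2 were used on mm10 (GRCm38). Which tool made which file, whether the counts are reads or estimates from coverage, and whether strand was used are not given in the sources used here, so values of overlapping genes are uncertain. Libraries were made with a stranded kit, per the labels' protocols.

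Symbols, biotypes and coordinates came from GENCODE M21 (GRCm38), which matched 54409 of 54532 IDs, and promoter windows from RefSeq on GRCm38.p6 for 25 of the 32 genes reported. Genes kept by filterByExpr (minimum count 10, minimum total 15) were scaled by TMM (factors 1.14, 1.12, 0.888 and 0.885 for Control 1, Control 2, DCKO 1 and DCKO 2) and tested with edgeR 4.0.16 in R 4.3.3, with the quasi-likelihood test, group being the sole term, and 2 residual degrees of freedom, two-sided, adjusted by Benjamini-Hochberg over all tested genes. CPM uses TMM-scaled totals, and SE is the fold change divided by the square root of F. Intervals are at 95%. A floor of 3 counts is 0.0479 to 0.0812 CPM and covers counting error only.

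Every gene of the set with at least 20 summed counts was named, with full statistics for those past the threshold and the most abundant of each family; of each pathway list, up to 4 called genes by p, or the one of smallest p, were named, and further genes were named after their values were seen. The members and lists were chosen with earlier results of these data known. In data simulated on these libraries, with only a small share of genes changed, most changed genes did not pass. In the data themselves 3274 of 19207 genes were called, and the adjusted p depends on that share. The recovery in the simulation therefore does not carry over to these data. A gene that did not pass may still differ. Alternatives were other scalings, filters, DESeq2 1.42.0, limma-voom (limma 3.58.1), TPM, removal of X, Y and ribosomal cluster genes, each library left out, and the replicate number as a block.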

Additional observations from a re-analysis of the deposited data

How the results depend on the processing

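With 3 genes higher and 1 lower as the reference, 15 alternatives gave 431 values for the 29 tested genes and 28 of them had the opposite sign. Etv4, not called with all libraries, passed with opposite signs against a lone DCKO library, at -0.993 without DCKO 1 and 0.813 without DCKO 2. Leaving out a library gave 0 to 6 genes higher and 0 to 4 lower. Without DCKO 1 or DCKO 2, 21.8% and 25.3% of all genes were called, against 3274 of 19207 with all libraries. Fgf21 and Fgf16, at 0 in Control, enter those counts only through the DCKO library in which they are high, so their call there is no test. The same holds for Fgf23 and Fgfr4, whose Control counts were below the limit for testing. Without Control 1 or Control 2, 0 passed in edgeR, with 4 and 5 higher and 1 and 4 lower at an unadjusted p under 0.05, and among all genes 245 and 155 were higher and 138 and 72 lower. With a filter of 1 CPM in 2 libraries, which leaves out Fgf23 and Fgfr4, 1 gene was higher, against 1884 of 14984 among all genes. On log2(TPM + 1) and log2(TPM + 0.1), in limma with a trend, 0 and 0 were higher, with 4 and 4 at an unadjusted p. Among all 23317 genes tested on these scales, 744 and 751 were higher. Genes lower were 5 with library totals (3744 of 19207 among all genes) and 2 in DESeq2 (2594 of 19207). On log2(TPM + 1) and log2(TPM + 0.1), 0 and 0 were lower (988 and 918 of 23317), again with 4 and 4 at an unadjusted p. The cause was not tested.

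The replicate numbers do not pair the samples by the labels. Over genes, the difference within Control and that within DCKO had a correlation of -0.0964. With the replicate block, 2 genes were higher (Fgf10 and Fgfr4) and 0 lower, with 4 at an unadjusted p, and 1002 genes were higher and 776 lower among all genes.

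Depth limits Fgf16, Fgf21, Fgf22, Fgf23 and Fgfr4, which had at most 22 counts in a Control library.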
